A study of Homo sapiens with 2 samples.

Results

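The miR-15/16 family is a group of microRNAs (miRNAs) that share the bases with which a miRNA recognises its target mRNAs. Its 7 members on the array were hsa-miR-15a-5p, hsa-miR-15b-5p, hsa-miR-16-5p, hsa-miR-195-5p, hsa-miR-424-5p, hsa-miR-497-5p and hsa-miR-503-5p. They were taken by name from the 2549 human miRNAs on the array by a rule that uses no measured value, although it was set with earlier results of these data known. In this study, RNA from the exosomes of FaDu cells was hybridized to one-colour Agilent miRNA arrays. FaDu is an established line from a squamous carcinoma of the human hypopharynx, and exosomes are small vesicles that cells release. Cells of the oe-NC group had received a control (NC) plasmid, and cells of the oe-HOTTIP group a plasmid for overexpression of the long noncoding RNA HOTTIP. The sources conflict on how the plasmids were delivered, as the labels name lentivirus for both groups while the methods name transfection with Lipofectamine for FaDu cells. Each group was 1 array of 200 ng of RNA from the same cell line. The comparison asked which exosomal miRNAs differ when HOTTIP is overexpressed.

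Since each group was a single array, no difference had a replicate check and no test was run. Precision is limited by the number of arrays, and the errors given are over the spots of an array, so they cover technical error only. The title and treatment given for an array contradict its description, which names the opposite group. Titles were followed here, so an array is named by its label (oe-NC or oe-HOTTIP), and all directions would be reversed if instead the descriptions held. A miRNA array has no target for HOTTIP, so the labels could not be checked against it. Both arrays lay on the same slide and were scanned together.

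A mature miRNA is cut from a hairpin precursor. One strand, the guide, is loaded into an Argonaute protein and pairs with mRNAs mainly through its seed, while the other, the passenger strand, is mostly degraded. The miR-15/16 family is known for repressing cyclin genes and the anti-apoptotic gene BCL2, and for the loss of the MIR15A and MIR16-1 locus in chronic lymphocytic leukaemia. It is encoded in clusters of neighbouring hairpins. miR-16-5p is also widely used as a reference miRNA in studies of blood and vesicle RNA.

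The mature sequences are printed because the seed is what defines the family. They are those of RefSeq on GRCh38.p14, which held all 7 members, with bases 2 to 8, the seed, in capitals:

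hsa-miR-15a-5p: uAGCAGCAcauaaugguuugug
hsa-miR-15b-5p: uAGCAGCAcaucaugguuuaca
hsa-miR-16-5p: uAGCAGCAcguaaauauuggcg
hsa-miR-195-5p: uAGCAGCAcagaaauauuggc
hsa-miR-424-5p: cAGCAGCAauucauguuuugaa
hsa-miR-497-5p: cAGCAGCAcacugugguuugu
hsa-miR-503-5p: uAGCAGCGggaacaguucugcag

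The seed AGCAGCA was shared by 6 of the 7 members. hsa-miR-503-5p departed from it at its last base, where the substitution against hsa-miR-16-5p was A8G, counted from the 5′ end. hsa-miR-424-5p and hsa-miR-497-5p differed from the others at the first base, U1C. Outside the seed the members diverged. hsa-miR-16-5p and hsa-miR-195-5p shared 19 of 21 bases, hsa-miR-15a-5p and hsa-miR-15b-5p shared 18 of 22, hsa-miR-15a-5p and hsa-miR-497-5p shared 17 of 21, and hsa-miR-15a-5p and hsa-miR-16-5p shared 16 of 22. Among the 2370 mature miRNAs of the RefSeq table, 7 carried the seed of hsa-miR-16-5p at bases 2 to 8, and 9 carried its bases 2 to 7, AGCAGC. All 9 were on the array. The probe sequences were not used here, so how far probes of near-identical members read each other was not tested.

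The genes lay in 4 clusters on 4 chromosomes. MIR15A and MIR16-1 were 57 bases apart on chromosome 13, within DLEU2, with hsa-miR-15a-5p at chr13:50049167-50049188 on the minus strand. MIR15B and MIR16-2 were 59 bases apart on chromosome 3, within SMC4, with hsa-miR-15b-5p at chr3:160404607-160404628 on the plus strand. MIR195 and MIR497 were 209 bases apart on chromosome 17, within MIR497HG, with hsa-miR-195-5p at chr17:7017667-7017687 and hsa-miR-497-5p at chr17:7017979-7017999, both on the minus strand. MIR424 and MIR503 were 215 bases apart on the X chromosome, with hsa-miR-424-5p at chrX:134546680-134546701 and hsa-miR-503-5p at chrX:134546371-134546393, both on the minus strand.

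hsa-miR-16-5p was the only member with more than 1 gene. It came from chr13:50049027-50049048 on the minus strand and from chr3:160404754-160404775 on the plus strand, and both loci gave the same mature sequence. The hairpins are printed to show this, with hsa-miR-16-5p in capitals and the differing remainder in lower case:

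MIR16-1: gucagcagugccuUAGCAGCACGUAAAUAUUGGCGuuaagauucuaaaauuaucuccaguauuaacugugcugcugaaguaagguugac
MIR16-2: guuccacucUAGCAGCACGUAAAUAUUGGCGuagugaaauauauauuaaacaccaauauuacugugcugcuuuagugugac

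An array signal for hsa-miR-16-5p therefore sums both loci, which cannot be told apart by it. The passenger strands hsa-miR-16-1-3p and hsa-miR-16-2-3p differ in sequence and have probes of their own.

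Of all 2549 miRNAs, 328 (12.9%) were marked detected by the scanner software on the array labelled oe-NC, against 390 (15.3%) for the array labelled oe-HOTTIP, with 261 detected on both and 2092 on neither. Signal was brighter on the array labelled oe-HOTTIP. Its 90th percentile over the 261 miRNAs was 439.4 arbitrary units of background-subtracted intensity, against 279.9 on the other array, a log2 ratio of 0.65. Negative control spots averaged 3.87 ± 2.37 (SD, n = 976 spots) on the array labelled oe-NC, against 3.45 ± 2.21 (SD, n = 975 spots) for oe-HOTTIP.

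The family split by cluster. hsa-miR-15a-5p, hsa-miR-15b-5p and hsa-miR-16-5p, the products of the chromosome 13 and chromosome 3 clusters, were detected on both arrays, with all of their kept spots well above background. hsa-miR-195-5p and hsa-miR-497-5p were marked detected on the array labelled oe-HOTTIP alone. hsa-miR-424-5p and hsa-miR-503-5p were detected on neither. Each member had 20 spots per array, in all 140 spots, of which 5 were left out as outliers on the array labelled oe-NC, with 1 left out on the other, and none was saturated.

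hsa-miR-16-5p, the member made from 2 loci, had a mean intensity of 243.1 ± 29.8 (SD within probes, n = 19 spots) on the array labelled oe-NC, with spots from 33.2 to 495.0 and a median of 388.7. On the array labelled oe-HOTTIP the mean was 439.4 ± 66.2 (n = 20 spots), with spots from 63.6 to 879.6 and a median of 406.1. The spots of its 2 probes lay apart, with probe means of 58.6 and 427.6 on the first array and of 105.1 and 773.7 on the second, so the spots of the arrays overlapped across probes. Before scaling, the array labelled oe-HOTTIP was 1.81-fold brighter for this miRNA. Scaling divided each array by its own 90th percentile. On this scale 86.9% of the percentile stood against 100%, and the log2 difference was 0.20 with an SE of 0.062 over spots (1.15-fold). The last of these levels was 100% by construction, because hsa-miR-16-5p itself stood at the 90th percentile, at rank 235 of 261 on the array labelled oe-HOTTIP. With the members left out of the percentile, an alternative chosen after seeing the data, the difference was 0.25. The probes gave 0.19 and 0.20. Of 19 spot positions kept on both arrays, 14 were above 0 after scaling, with a median of 0.17 and a range from -0.47 to 0.85.

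hsa-miR-15a-5p, which is transcribed with MIR16-1, had a mean intensity of 46.0 ± 8.81 (n = 19 spots) on the array labelled oe-NC, with spots from 20.1 to 82.4 and a median of 45.3. On the array labelled oe-HOTTIP the mean was 76.0 ± 10.6 (n = 20 spots), with spots from 23.9 to 133.9 and a median of 78.2. The spots of the arrays overlapped when its 2 probes were pooled. The probe means were 24.1 and 68.0 on the first array and 39.7 and 112.2 on the second. The unscaled ratio was 1.65-fold, close to that of the arrays as a whole, and the scaled log2 difference was 0.072 with an SE of 0.075, which was within its technical error of 0. Its probes gave 0.070 and 0.073, and 11 of 19 spot positions were above 0.

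hsa-miR-15b-5p, which is transcribed with MIR16-2, had a mean intensity of 158.4 ± 14.6 (n = 19 spots) on the array labelled oe-NC, with spots from 52.5 to 268.8 and a median of 84.3. On the array labelled oe-HOTTIP the mean was 209.1 ± 22.0 (n = 20 spots), with spots from 71.4 to 347.9 and a median of 188.9. Its 2 probes lay apart too, with probe means of 245.9 and 70.9 on the first array and of 320.2 and 98.1 on the second. The overlap in these ranges is that of both probes pooled. Of the brighter probe, 9 spots were kept on the first array and 10 on the second, so the medians over both probes are not like for like. Here the unscaled ratio of 1.32-fold was below that of the arrays as a whole. The scaled log2 difference was -0.25 with an SE of 0.046, and its probes gave -0.27 and -0.18. Of 19 spot positions, 5 were above 0, with a median of -0.23 and a range from -0.64 to 0.18.

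**Figure D1:**
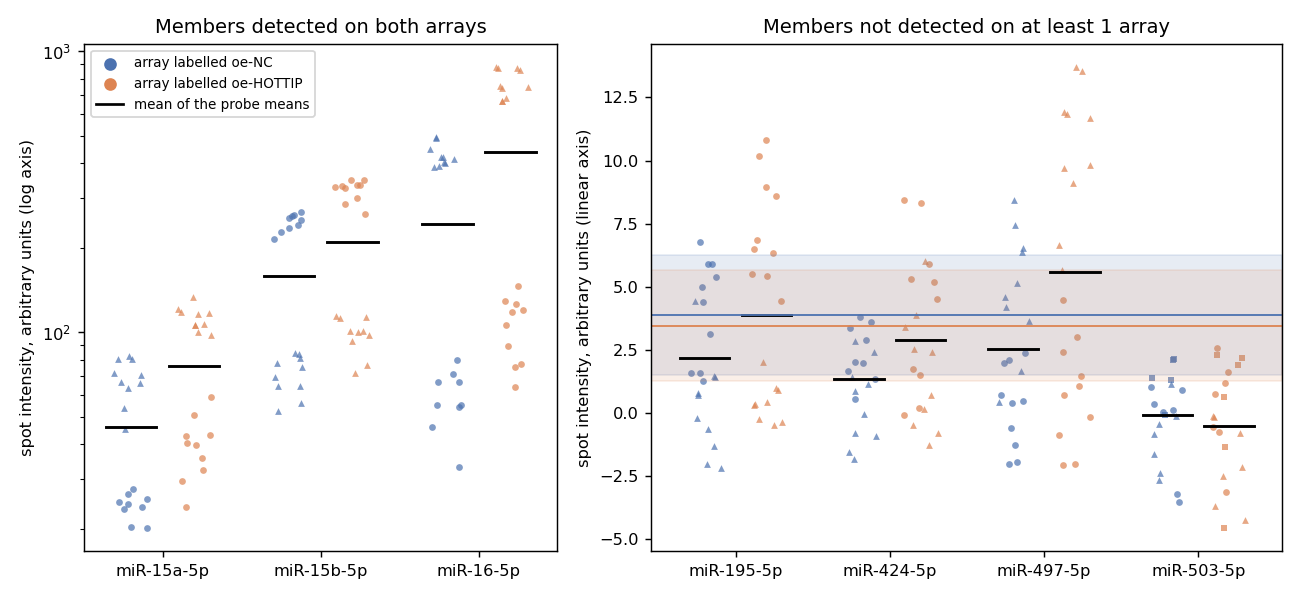
Background-subtracted intensity in arbitrary units of every spot kept for the 7 members, on a log axis for those detected on both arrays (left) and on a linear axis for the rest (right), where coloured lines and bands give the mean ± SD of the negative control spots of each array. Point shapes mark the probes of a miRNA and black bars the mean of its probe means, which reached 439.4 for miR-16-5p on the array labelled oe-HOTTIP and lay within or below the negative control bands for the 4 members on the right.

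None of the 3 members detected on both arrays reached the 2-fold threshold of the methods, whereas 39.1% of all miRNAs detected on both arrays did, 47 of them higher and 55 lower on the array labelled oe-HOTTIP. With miRNAs detected on 1 array counted by their bound, none of 5 members reached it, against 59.1% of all. The 3 members were bright, while both shares include dim miRNAs such as hsa-miR-18a-5p, at 3.58 on the array labelled oe-NC. This miRNA did not itself reach 2-fold, with a log2 difference of 0.19. Of the 207 miRNAs detected with signal above the negative controls on both arrays, 80 reached 2-fold, 44 higher and 36 lower. Scaling was then over these 207 miRNAs. The 270 calls behind the second share became 34 with normexp and an offset. The contrast between the few members and all miRNAs was not tested. The log2 differences of the 3 members ran from -0.25 to 0.20 with a median of 0.072, beside a median of 0.024 and quartiles of -0.66 and 0.73 over all 261. The sign of the members' median depends on the scaling, as it was above 0 in 11 and below 0 in 6 of 17 alternatives, from -0.21 to 0.72, beside 0.19 in the authors' normalized table with its columns as named. A larger absolute difference than that of any detected member was seen in 198 of the 258 other miRNAs (76.7%), and 58 (22.5%) lay within the range of the members. The median absolute log2 difference of all 261 was 0.70, and that of the 3 members was 0.20.

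**Figure D2:**
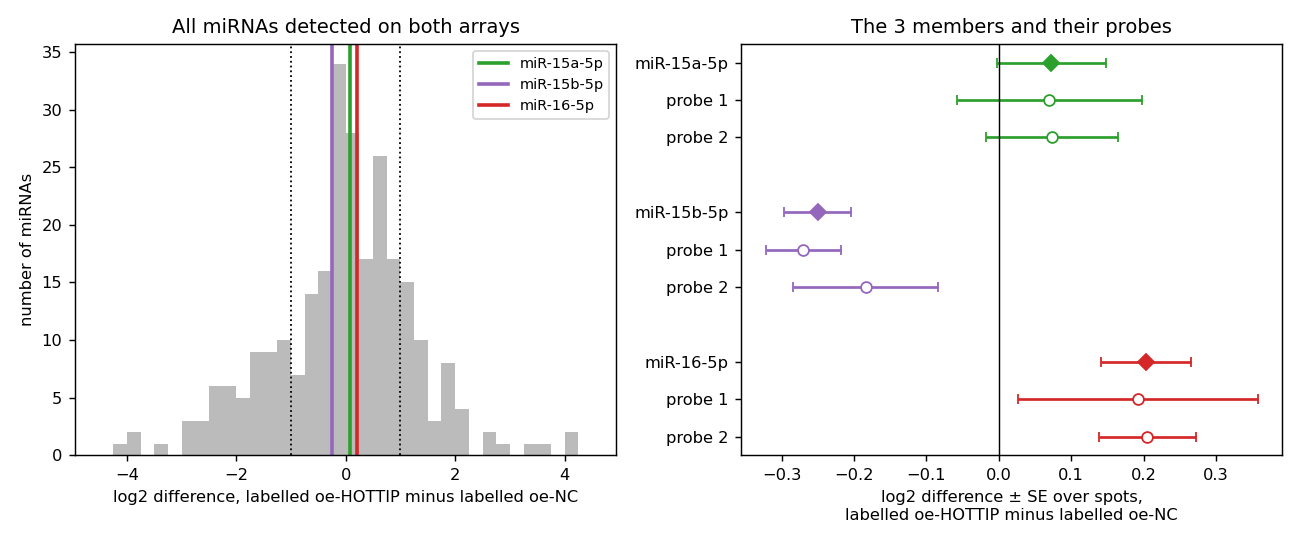
Left, number of miRNAs by scaled log2 difference, labelled oe-HOTTIP minus labelled oe-NC, for the 261 miRNAs detected on both arrays, with dotted lines at 2-fold and coloured lines at the 3 members. Right, the same difference for the 3 members (diamonds) and for each of their probes (circles), with bars of 1 SE over spots, from -0.27 for a probe of miR-15b-5p to 0.20 for miR-16-5p.

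The 3 members were also set against each other, by the difference between their log2 differences. Dividing an array by a single factor does not change such a value. The log2 difference of hsa-miR-16-5p exceeded that of hsa-miR-15b-5p by 0.45 with an SE of 0.077, or 1.37-fold, and by 0.38 to 0.47 over the pairs of their probes. Their genes lie within 59 bases of each other on chromosome 3, and hsa-miR-16-5p also comes from chromosome 13. Whether the second locus bears on the difference was not tested. hsa-miR-15a-5p exceeded hsa-miR-15b-5p by 0.32 with an SE of 0.088, or 1.25-fold. hsa-miR-16-5p exceeded hsa-miR-15a-5p by 0.13 with an SE of 0.098. These values were 5.85, 3.66 and 1.34 times their SE, in that order. The spread of single spots on the same scale was 0.35, 0.40 and 0.44, so that only the first value was larger than it. Where hsa-miR-15a-5p stood between the other two depended on the processing. hsa-miR-16-5p exceeded it by 0.33 with quantile normalization and by 0.39 with normexp and an offset. Under these settings hsa-miR-15a-5p exceeded hsa-miR-15b-5p by only 0.11 and 0.056. In the authors' normalized table with its columns exchanged, hsa-miR-16-5p exceeded hsa-miR-15a-5p by 0.28, and hsa-miR-15a-5p exceeded hsa-miR-15b-5p by 0.14. The value for hsa-miR-16-5p over hsa-miR-15b-5p ran from 0.40 to 0.47 in 17 of 18 alternatives, and was -0.42 in the authors' normalized table with its columns as named. Alternatives that changed only the scaling factor, the detection rule or the floor kept it at 0.45 by construction.

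The order, with hsa-miR-16-5p above hsa-miR-15a-5p above hsa-miR-15b-5p in log2 difference, was found in 17 of 18 alternatives. Those that changed only the scaling factor, the detection rule or the floor could not alter this order, so the count is not one of independent checks. The exception was the authors' normalized table with its columns as named. The same table with its columns exchanged, which only turns the signs round, was counted among the 17. Relative to the median of all miRNAs detected on both arrays, hsa-miR-16-5p was higher in all of the other 17 alternatives, by 0.18 to 0.51, and hsa-miR-15b-5p was lower in 16 and higher with normexp and an offset, by 0.064. hsa-miR-15a-5p lay above that median in 16 of them and below it with quantile normalization, by -0.039, and stayed within 0.15 of it. A change of the scaling factor or floor alone cannot move these distances, so such alternatives add no separate check to the counts.

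**Figure D3:**
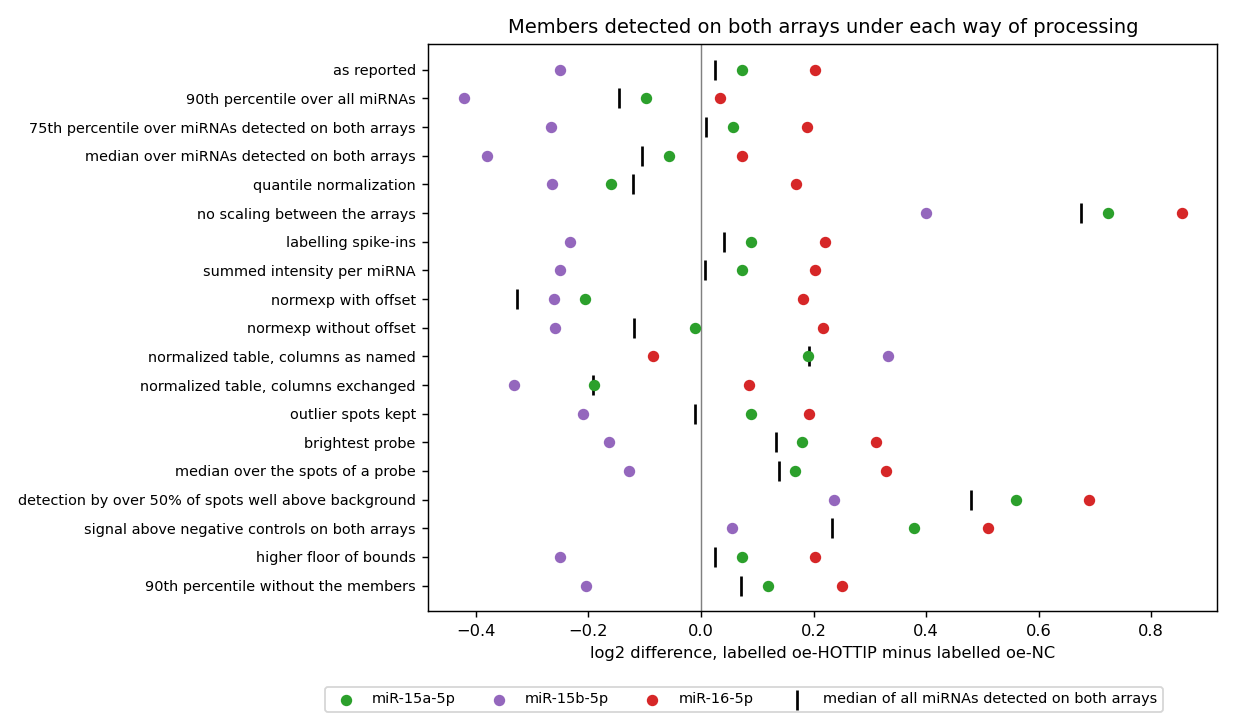
Log2 difference, labelled oe-HOTTIP minus labelled oe-NC, of the 3 members detected on both arrays under the processing reported and 18 alternatives, with black ticks at the median of all miRNAs detected on both arrays. The members lie from -0.42 for miR-15b-5p with the 90th percentile over all miRNAs to 0.85 for miR-16-5p without scaling. The distances between them change with quantile normalization, normexp and the authors' normalized table. Their order turns round where that table is read by its column names.

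In the authors' normalized log2 table, the column named oe-NC held 3.94 for hsa-miR-15a-5p, 5.56 for hsa-miR-15b-5p and 6.58 for hsa-miR-16-5p, and the column named oe-HOTTIP held 4.13, 5.89 and 6.50. By these names, hsa-miR-15b-5p would be higher by 0.33 and hsa-miR-16-5p lower by a log2 difference of -0.086 under HOTTIP. Across miRNAs, however, the column named oe-NC followed the scanner values of the array labelled oe-HOTTIP (Spearman's rho 1.00 over 388 miRNAs) rather than those of its own array (0.77 over 261). The column named oe-HOTTIP followed the array labelled oe-NC in the same way (1.00 over 315 miRNAs, against 0.76 over 258). hsa-miR-195-5p and hsa-miR-497-5p had values above the floor of that table, 0.029 and 0.28, only in the column named oe-NC, while in the scanner output they were detected on the array labelled oe-HOTTIP alone. Which group each array held cannot be told apart from these files.

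The cluster of MIR195 and MIR497, known for a role in muscle and in the repression of cell cycle genes, lay at the background. hsa-miR-497-5p had a mean intensity of 2.53 ± 2.12 (n = 20 spots) on the array labelled oe-NC, compared with 5.58 ± 2.44 (n = 20 spots) on the array labelled oe-HOTTIP, where 5 of 20 spots were well above background. Against the lowest signal detected on the array labelled oe-NC, or its own signal there, it was at least 1.40-fold higher after scaling. One probe read 4.85 and 10.4 on the respective arrays and the other 0.22 and 0.80, so the higher signal came from 1 probe.

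hsa-miR-195-5p read 2.17 ± 2.02 (n = 20 spots) on the array labelled oe-NC, compared with 3.90 ± 1.66 (n = 19 spots) on the array labelled oe-HOTTIP. The scanner software marked it detected on the second. This gave a bound of 1.14-fold, again over its own undetected signal on the first. None of its spots was well above background on either array, and its mean on the second lay 0.20 SD from that of the negative control spots. One probe read 4.10 and 7.36 on the respective arrays and the other 0.24 and 0.43, so here too the higher signal came from 1 probe. Neither bound was above 1 when a higher floor was set, 5.32 for the array labelled oe-NC, which is the signal from which 50% or more of the miRNAs of neighbouring rank were detected. Whether the probes of hsa-miR-195-5p also read hsa-miR-16-5p, with which it shares 19 of 21 bases, was not tested.

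The cluster of MIR424 and MIR503, which in other cells is induced during differentiation and under hypoxia, was not detected. hsa-miR-424-5p read 1.35 ± 1.41 (n = 19 spots) on the array labelled oe-NC, compared with 2.88 ± 2.78 (n = 20 spots) on the array labelled oe-HOTTIP. hsa-miR-503-5p read -0.077 ± 1.50 (n = 19 spots) and -0.51 ± 2.09 (n = 20 spots). Both were below the mean of the negative control spots on both arrays, and no spot was well above background, so no fold is given. The 7 miR-542 and miR-450 strands encoded near them on the X chromosome were not detected either. Their means ran from -0.82 for hsa-miR-450a-1-3p to 1.18 for hsa-miR-450a-5p on the array labelled oe-NC and from -0.36 for hsa-miR-542-3p to 1.11 for hsa-miR-450b-3p on the array labelled oe-HOTTIP. hsa-miR-542-5p, hsa-miR-450a-2-3p and hsa-miR-450b-5p lay between these.

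No passenger strand of the family was detected, also not beside the bright guides. All 8 means lay below the mean of the negative control spots on both arrays, from -3.06 to 1.29 on the array labelled oe-NC and from -1.74 to 1.48 on the array labelled oe-HOTTIP. hsa-miR-16-1-3p read -1.20 and -1.74 and hsa-miR-16-2-3p read 1.09 and 1.48 on the arrays labelled oe-NC and oe-HOTTIP, so the passenger strands gave no reading of which locus supplied hsa-miR-16-5p. hsa-miR-15a-3p read -0.59 and -0.35, and hsa-miR-15b-3p read 1.29 and 0.79. The other four, hsa-miR-195-3p, hsa-miR-424-3p, hsa-miR-497-3p and hsa-miR-503-3p, read at most 0.93. hsa-miR-646 and hsa-miR-6838-5p, the other miRNAs with AGCAGC at bases 2 to 7, read from -2.77 to -1.08 and were not detected. A miRNA not detected here may still be present below the signal these arrays can resolve.

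**Figure D4:**
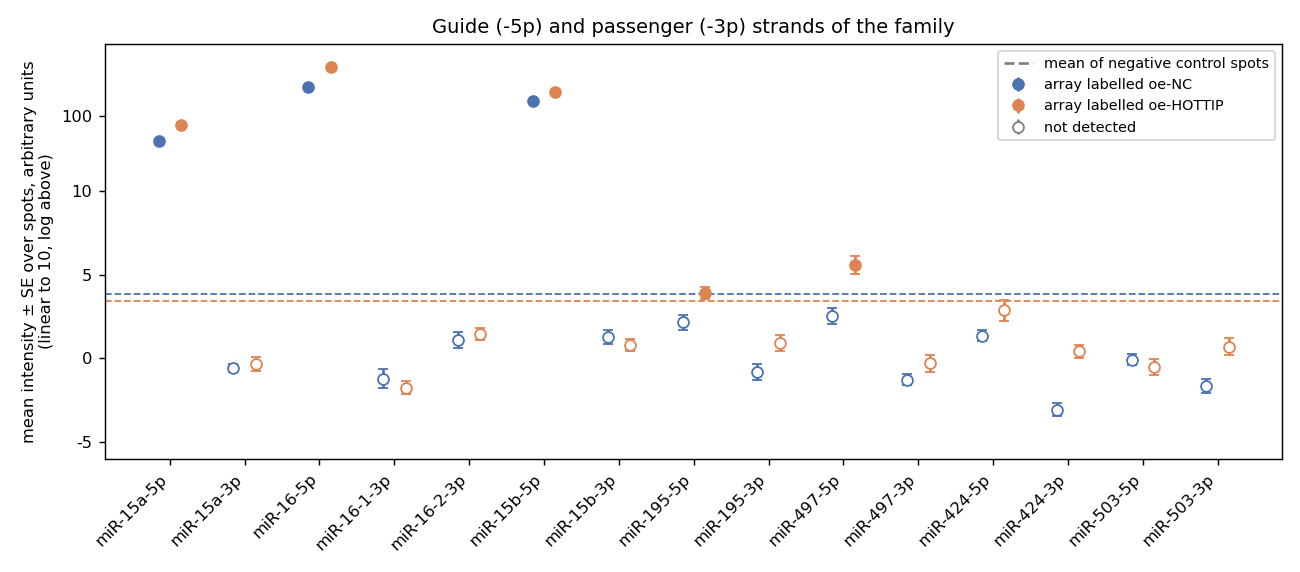
Mean background-subtracted intensity ± SE over spots in arbitrary units of each guide (-5p) and passenger (-3p) strand of the family on both arrays, on an axis that is linear up to 10 and logarithmic above, with dashed lines at the mean of the negative control spots. Filled points are detected and open points are not, and all 8 passenger strands lie below the dashed lines.

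Other conserved families in the same exosomes also had log2 differences on either side of 0, and none of their members detected on both arrays reached 2-fold. The let-7 guides with hsa-miR-98-5p, tumour-suppressive miRNAs, had 8 of 9 detected on both arrays and log2 differences from -0.26 to 0.94, with a median of 0.24. The miR-29 and miR-30 guides had 7 of 8 detected on both arrays, from -0.97 to 0.43, with a median of -0.17. The lowest value was that of the dim hsa-miR-30e-5p, at 5.87 on the array labelled oe-NC against 4.71 on the other. Of its 20 spots, 4 and 1 were well above background on the respective arrays. hsa-miR-103a-3p and hsa-miR-107 carry the same 7 letters as the family seed but start with them, which moves their own seed by 1 base, as printed here with the shared letters in capitals:

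hsa-miR-103a-3p: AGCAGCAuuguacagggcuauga
hsa-miR-107: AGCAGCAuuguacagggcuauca

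Their log2 differences were -0.089 and 0.0059. These medians and the lack of 2-fold differences hold for the 90th percentile scaling. Before scaling, hsa-let-7f-5p for 1 passed 2-fold, with a log2 difference of 1.59. The lists were described and not tested. The miRNAs outside these lists with the differences most like that of hsa-miR-16-5p were hsa-miR-24-3p with 0.21, hsa-miR-18a-5p with 0.19 and hsa-miR-6756-5p with 0.23, a likeness over 2 arrays only. hsa-miR-18a-5p was itself dim, with a mean intensity of 3.58 on the array labelled oe-NC against 6.41 on the other.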

How the data were processed

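Total RNA from exosomes was labelled with Cy3, hybridized and scanned by the authors, and read with Agilent Feature Extraction (version 10.10 in the submitters' processing notes, 11.5.1.1 in the scanner output). The authors deposited the scanner output, whose background-subtracted spot intensity, summed intensity and flags were used, and a table of normalized log2 values, for which the methods name GeneSpring and the 90th percentile. Control and outlier spots were left out, spots were averaged per probe and probes per miRNA, and the 90th percentile of the 261 miRNAs found on both arrays was used to scale each array, with log2 taken afterwards. For a miRNA detected on 1 array, the bound is its signal over the lowest signal detected on the second array, or over its signal there where that was higher. Errors over spots were pooled within probes. No test was run. The members and lists were chosen with earlier results of these data known, and the named miRNAs are the members, their passenger strands, cluster neighbours, other miRNAs with the seed, and the 3 nearest to miR-16-5p. Alternatives covered scaling (the 75th percentile among them), background correction, summarisation, detection and floors. They also covered the authors' normalized table, read with its columns as named and with its columns exchanged. normexp with an offset of 50 used median spot signals. Sequences and positions are from the RefSeq table of GRCh38.p14. Software was R 4.3.3 with limma 3.58.1, and Python 3.11.15 with pandas 2.3.3, numpy 2.4.6 and matplotlib 3.10.9.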

Additional observations from a re-analysis of the deposited data

How the results depend on the processing

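No paired analysis was possible because the groups hold 1 array each, and no replicate could be left out. The median log2 difference of the 3 members, 0.072, was 0.72 with no scaling, 0.56 with detection by over 50% of spots well above background and 0.38 with signal above the negative controls. No member reached 2-fold except with no scaling, where 1 did, hsa-miR-497-5p by its bound. Over all miRNAs, 270 calls became 34 with normexp and an offset, 137 with normexp and no offset, 145 with detection by spots, 80 with the negative-control filter and 174 with the higher floor. With no scaling there were 286. The 270 calls were among 457 miRNAs detected on at least 1 array. Detection by spots and the negative-control filter also changed which miRNAs were counted. The filter kept 207 miRNAs, all counted on both arrays, so its 80 calls stand beside the 102 of 261 detected on both. Of the calls reported 42.6% were lower, against 22.0% with no scaling, 26.9% with detection by spots, 61.3% with normexp and no offset and 76.5% with normexp and an offset. Some settings moved the median of all miRNAs by over 0.1, from -0.35 with normexp and an offset to 0.65 with no scaling, and the members are also given relative to it. hsa-miR-16-5p ran from 0.033 to 0.85 and hsa-miR-15b-5p from -0.42 to 0.40 without the normalized table as named, and leaving the members out of the percentile gave 0.25, -0.20 and 0.12 for hsa-miR-16-5p, hsa-miR-15b-5p and hsa-miR-15a-5p. Signal over background limits the 4 dim members.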

Other observations

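The 7 letters AGCAGCA also occur elsewhere in mature miRNAs, in 11 of 2370 names of the RefSeq table when any position is counted. Beside the miRNAs already named these are hsa-miR-4524a-5p and hsa-miR-4524b-5p, chosen after their values were seen, which carry the letters 1 base later than the family. hsa-miR-4524a-5p had mean intensities of -1.08 on the array labelled oe-NC against -2.36 for the one labelled oe-HOTTIP, and hsa-miR-4524b-5p of -1.32 and -1.27. Neither was detected, so that among these 11 names the 3 members, miR-103a-3p and miR-107 were the ones detected on both arrays.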
